A study of Saccharomyces cerevisiae with 19 samples.

Results

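Sir3 binding was compared in 1 yeast strain after 2 growth histories. Cells of strain yAT1254, which makes Sir3 from the strong GPD promoter, were taken 8 h after release from 5 mM nicotinamide into fresh YPD (2 arrays, called nicotinamide release), or in steady exponential growth in YPD (2 arrays, called steady). The titles chose these 4 arrays out of 19, and no measured value entered the choice. Besides sir3::GPD-SIR3(NAT), both groups carried rap1::GFP-RAP1(LEU2), a ppr1Δ::HIS3 deletion, the allele ade2-1::ADE2 and, at the left end of chromosome 7, the insertion adh4::URA3-4xUASG-(C1-3A)n. Nicotinamide is named only in the titles and descriptions of the release arrays, whose growth text is that of ordinary exponential cultures, and no array from before release was analysed here.

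Other arrays served for reference. WT (yAT191, 2 arrays) has the same alleles without sir3::GPD-SIR3. Sir3 made from the GPD promoter at sir3 was also mapped in steady growth, on 1 array each, in yAT2554 (with rap1::RAP1-GFP(LEU2), hmlΔ::HPH and ade2-1::ADE2) and in yAT2476 (with rap1::GFP-RAP1(LEU2)). The release arrays belong to the later of 2 deposits (7 arrays) and the steady arrays to the first (12 arrays), so deposit and growth history cannot be told apart from these 4 arrays alone. In 3 other strains the first array belongs to the first deposit and the second to the later one. They are yAT2627 (sir3::pADH-SIR3(NAT)) and yAT2629 (sir3::pTEF-SIR3(NAT)), each with rap1::RAP1-GFP(LEU2), hmlΔ::HPH and ade2-1::ADE2, and yAT1668, called pGPD-SIR2 pGPD-SIR3, which has sir2::GPD-SIR2(KanMX) and sir3::GPD-SIR3(NAT) with RDN1::ADE2 and rap1::RAP1-GFP(LEU2). The remaining 5 arrays were of pGPD-SIR2 (1 array), pGPD-SIR3-A2Q (2 arrays) and a dot1 pGPD-SIR3 strain, also after nicotinamide release (2 arrays). They entered only the estimate of the spread, to which the single pGPD-SIR2 array adds nothing. The later minus first differences of the 3 strains with an array in each deposit are given beside the results. So is a fit with deposit as a covariate, which rests on these 3 strains.

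Sir3 is a structural subunit of the SIR complex, which silences genes next to yeast telomeres and at the silent mating loci HML and HMR. Sir2, the deacetylase of the complex, removes acetyl groups from histone tails and so lets Sir3 and Sir4 bind the next nucleosome inward from a telomere. Nicotinamide is a product of the Sir2 reaction and inhibits the enzyme, and extra Sir3 is known to push silent chromatin further inward.

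The values are log2 ratios of immunoprecipitated (Cy5) to input (Cy3) DNA per probe, with each array's median over chromosomal probes set to 0. Of 41480 chromosomal probes, 40237 had a ratio on all 4 arrays. Over probes, the release arrays correlated with each other at r = 0.961, the steady arrays at 0.970 and the WT arrays at only 0.744. Release with steady arrays gave 0.862 to 0.899. Median ratios before centring were 0.936 and 0.923 on the release arrays, against 0.141 and 0.405 on the steady arrays. Over the 16 probes within 2 kb of HMR, a natural site of silencing, the median log2 ratio was 4.64 and 6.05 on the release arrays, against 6.54 and 5.96 on the steady arrays. Release replicate 1 thus stood below the other 3 arrays there, and results are also given without it and after scaling each array to this plateau, an alternative added after these values were seen. Nothing in the labels says that arrays of a group came from separate cultures, so the p-values reflect array-to-array spread only, possibly of technical origin. Without the deposit covariate, that spread also holds the difference between deposits in the 3 strains with an array in each.

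Sir3 covered less of the chromosome ends on the 2 release arrays than on the 2 steady arrays. The groups differ in deposit as well as in growth history. In 1-kb bins within 50 kb of the 32 chromosome ends, a bin was called covered when it exceeded the array's internal median by 3 scaled median absolute deviations. Of 1295 bins, 400 and 458 were covered on the release arrays, against 538 and 518 on the steady arrays. The groups did not overlap, and WT had 304 and 224. The means were 429 ± 41.0 kb after release and 528 ± 14.1 kb in steady growth (SD, n = 2 each), a difference of -99.0 kb. An exact permutation test of 2 against 2 arrays cannot give a two-sided p below 0.333, so no test was made. The array of the later deposit was lower than that of the first in the other strains too, by 32 kb in pADH-SIR3, 52 kb in pTEF-SIR3 and 114 kb in pGPD-SIR2 pGPD-SIR3, and their part in the difference was not tested. Taking their mean off leaves a difference of -33.0 kb.

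**Figure D1:**
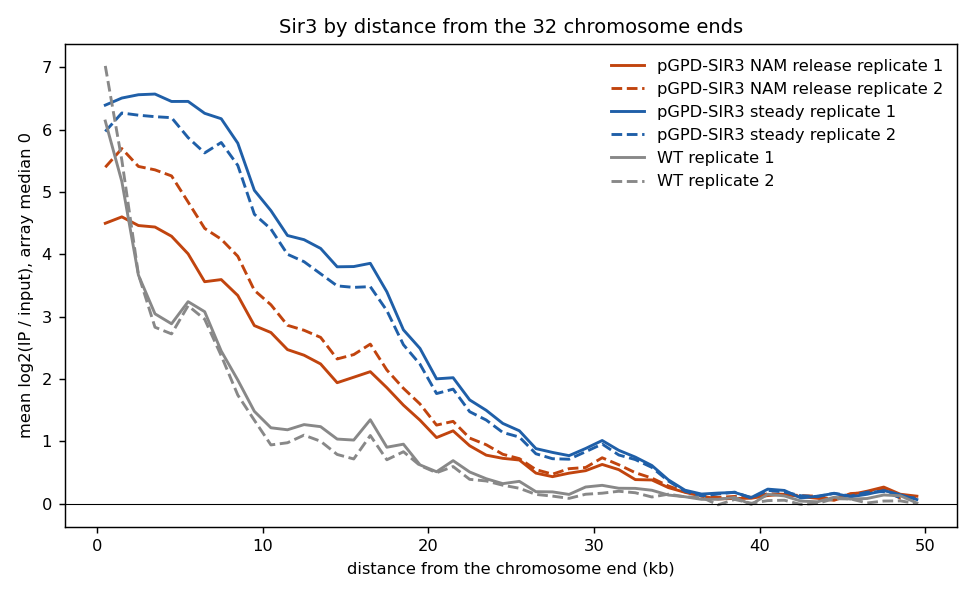
Mean log2(IP / input) in 1-kb steps of distance from the 32 chromosome ends (kb), 1 line per array, for nicotinamide release (orange), steady (blue) and WT (grey). The release lines lie between the steady lines and the WT lines from 2 to 30 kb, and fall below 1 at 22 and 23 kb, against 26 kb on both steady arrays.

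The mean profile shows the same order along the ends. In the bin at 10 kb it was 2.74 and 3.19 on the release arrays, against 4.70 and 4.40 on the steady arrays and 1.22 and 0.94 on the WT arrays. In the outermost bin it was 4.50 and 5.40 after release, against 6.39 and 5.97 in steady growth and 6.14 and 7.02 in WT, so that the release arrays were the lowest of the 3 groups there.

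The bins covered in steady growth alone lay mostly beyond 10 kb. Sir3 covered 386 bins on all 4 arrays, 79 on both steady arrays and neither release array, and 8 on both release arrays and neither steady array. Of the bins covered on the steady arrays alone, 0 lay within 5 kb of an end, 20 at 15 to 20 kb and 32 at 20 to 30 kb. Of 208 bins covered on both WT arrays, 206 were covered on both release arrays. Among 174 bins covered in yAT2554 and yAT2476 and on neither WT array, 81 were covered on both release arrays and 68 on neither. This set was chosen without the 4 arrays compared, but on arrays that share the growth and the deposit of the steady group.

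Covered length was shorter on both release arrays than on both steady arrays at 18 of 32 ends (56.2%), longer at 3 (9.38%), and overlapped at 11. The later array was the shorter at 20 ends in pADH-SIR3, 20 in pTEF-SIR3 and 30 in pGPD-SIR2 pGPD-SIR3. Chromosome 16 right differed most, with 3 and 4 kb covered after release, against 18 and 19 kb in steady growth and a WT mean of 3.0 kb. There the later minus first difference was -15 kb in pGPD-SIR2 pGPD-SIR3, -10 kb in pTEF-SIR3 and -3 kb in pADH-SIR3. Chromosome 1 left had 23 and 26 kb after release, against 35 and 31 kb in steady growth. Chromosome 2 right had 12 and 12 kb, against 21 and 19 kb, with later minus first differences of -14, -5 and -1 kb in the same order. At chromosome 5 left 14 and 15 kb were covered after release, against 21 and 20 kb in steady growth and 14 and 4 kb in WT. Later minus first differences, in that order, were -2, -1 and -3 kb at chromosome 1 left and 0, -1 and 0 kb at chromosome 5 left. The part of deposit in the differences at these ends was not tested. The other ends that were shorter without overlap were the left ends of chromosomes 6, 9, 10, 11, 12 and 16 and the right ends of chromosomes 1, 4, 5, 7, 8, 9, 14 and 15, with mean differences from -2.0 to -7.0 kb. The ends with more covered bins after release were chromosome 12 right (12 and 14 kb after release, against 10 and 10 kb), chromosome 3 left (23 and 22 kb, against 21 and 21 kb) and chromosome 6 right (22 and 22 kb, against 21 and 20 kb). At chromosome 12 right the domain next to the end reached the bin at 21 kb on all 4 arrays. The bins there that were covered after release alone lay apart from it, at 34 to 49 kb, so the domain itself was not longer.

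**Figure D2:**
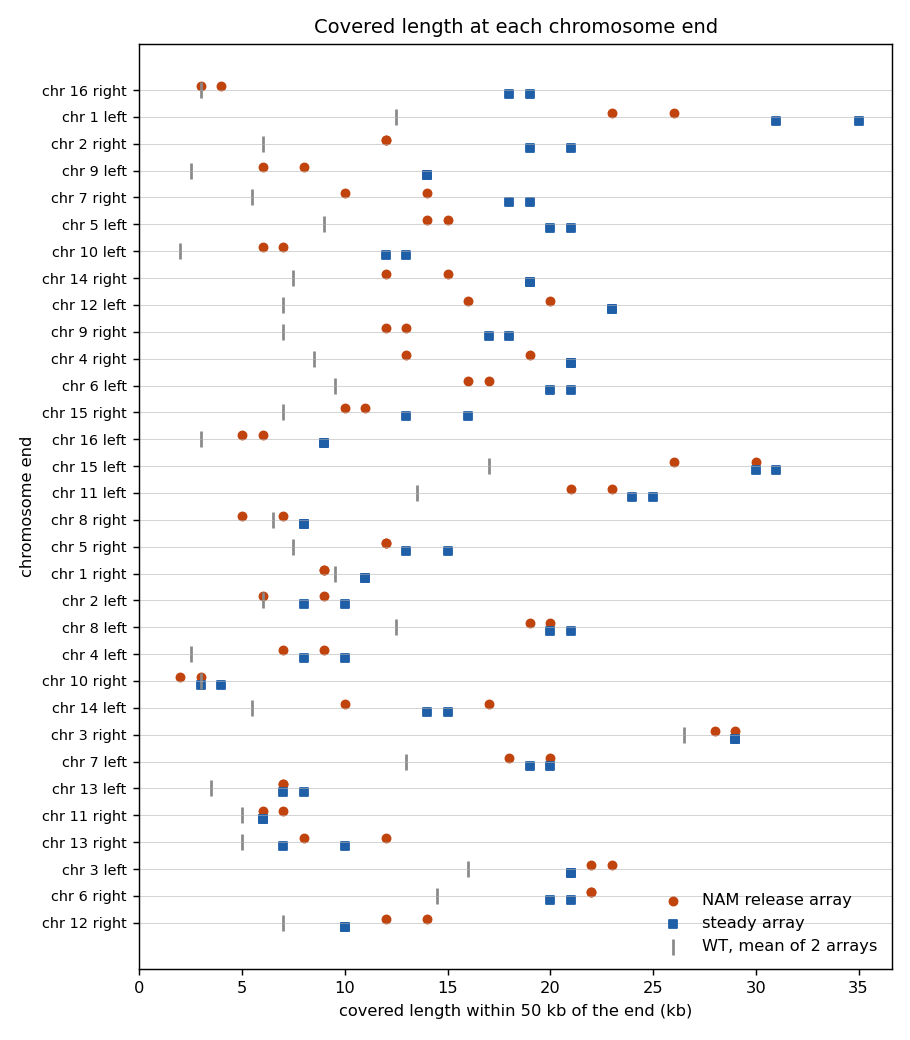
Covered length within 50 kb (kb) at each of the 32 chromosome ends, ordered by the difference of the group means, with 1 point per array for nicotinamide release (orange circles) and steady (blue squares) and a grey tick for the WT mean. The release points lie left of the steady points at 18 ends, by up to 15.0 kb on average at chromosome 16 right, and right of them at 3 ends. At chromosome 16 right the later minus first difference was -15 kb in pGPD-SIR2 pGPD-SIR3, -10 kb in pTEF-SIR3 and -3 kb in pADH-SIR3 (not drawn).

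Distance windows along each end were tested with limma over all 19 arrays, with Benjamini-Hochberg adjustment. Of 144 windows, 61 fell after release (42.4%) and 0 rose, while 77 lower and 2 higher windows had an unadjusted p under 0.05. With quantile normalization 19 fell and 12 rose. With deposit as a covariate 10 fell (6.94%), all of them among the 61, and 0 rose. Without release replicate 1, or without steady replicate 1, 10 windows passed, and 37 passed without steady replicate 2. The median difference was -1.35 over the 10 windows at 0 to 5 kb, -1.49 over 21 at 5 to 10 kb, -1.50 over 22 at 10 to 15 kb, -1.11 over 28 at 15 to 20 kb and -0.28 over 31 at 20 to 30 kb. The later minus first medians at 0 to 5 kb were -0.26 in pADH-SIR3, -1.10 in pTEF-SIR3 and -0.98 in pGPD-SIR2 pGPD-SIR3. After scaling to the HMR plateau, 0 of the 10 outermost windows and 9 of the 28 at 15 to 20 kb passed as lower. In the outermost windows no difference was thus called once deposit or plateau was taken into account, while some further inward were called under each.

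At chromosome 5 left the window from 15 to 20 kb fell most. It had log2 ratios of 1.5 and 1.73 after release, against 5.93 and 5.59 in steady growth. In steady growth yAT2554 and yAT2476 had 4.83 and 5.14, and the WT arrays had 1.31 and 0.12 (mean 0.72). The release arrays were thus nearer to WT than to any of these 4 arrays with Sir3 from the GPD promoter in steady growth. The difference was -4.14 ± 0.38 (SE, limma adjusted p = 0.000179) and -3.68 with deposit as a covariate (adjusted p = 0.00376). The windows at 10 to 15 and 5 to 10 kb of the same end differed by -3.35 (adjusted p = 0.00223) and -3.06 (adjusted p = 0.000845), and both were also called with the covariate (adjusted p = 0.0297 and 0.00986).

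At chromosome 11 left the window from 10 to 15 kb had 1.06 and 1.19 after release, against 5.04 and 4.17 in steady growth (difference -3.48, limma adjusted p = 0.00223, and 0.0333 with the covariate). In the bin at 11 kb they had 0.72 and 0.73, against 4.84 and 3.82 in steady growth, while in the bin at 20 kb they had 4.25 and 5.06, against 6.51 and 5.95. WT averaged 0.82 and 2.35 in these bins, so that Sir3 after release dipped to the WT level at 11 kb and stood high again further inward.

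The other 2 of the 6 largest falls did not pass with the covariate. At chromosome 16 right the window from 5 to 10 kb had 0.90 and 1.02 after release, against 4.87 and 4.94 in steady growth (difference -3.94, limma adjusted p = 0.0128). With the covariate the difference was -1.85 (adjusted p = 0.109), and the later arrays of pTEF-SIR3 and pGPD-SIR2 pGPD-SIR3 were also lower there, with differences of -2.67 and -2.97. In the same window at chromosome 2 right the release arrays had 1.87 and 1.99, against 5.58 and 5.07 (difference -3.40, adjusted p = 0.0128, and 0.19 with the covariate). There the later minus first difference was -3.20 in pGPD-SIR2 pGPD-SIR3 and -0.93 in pTEF-SIR3.

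**Figure D3:**
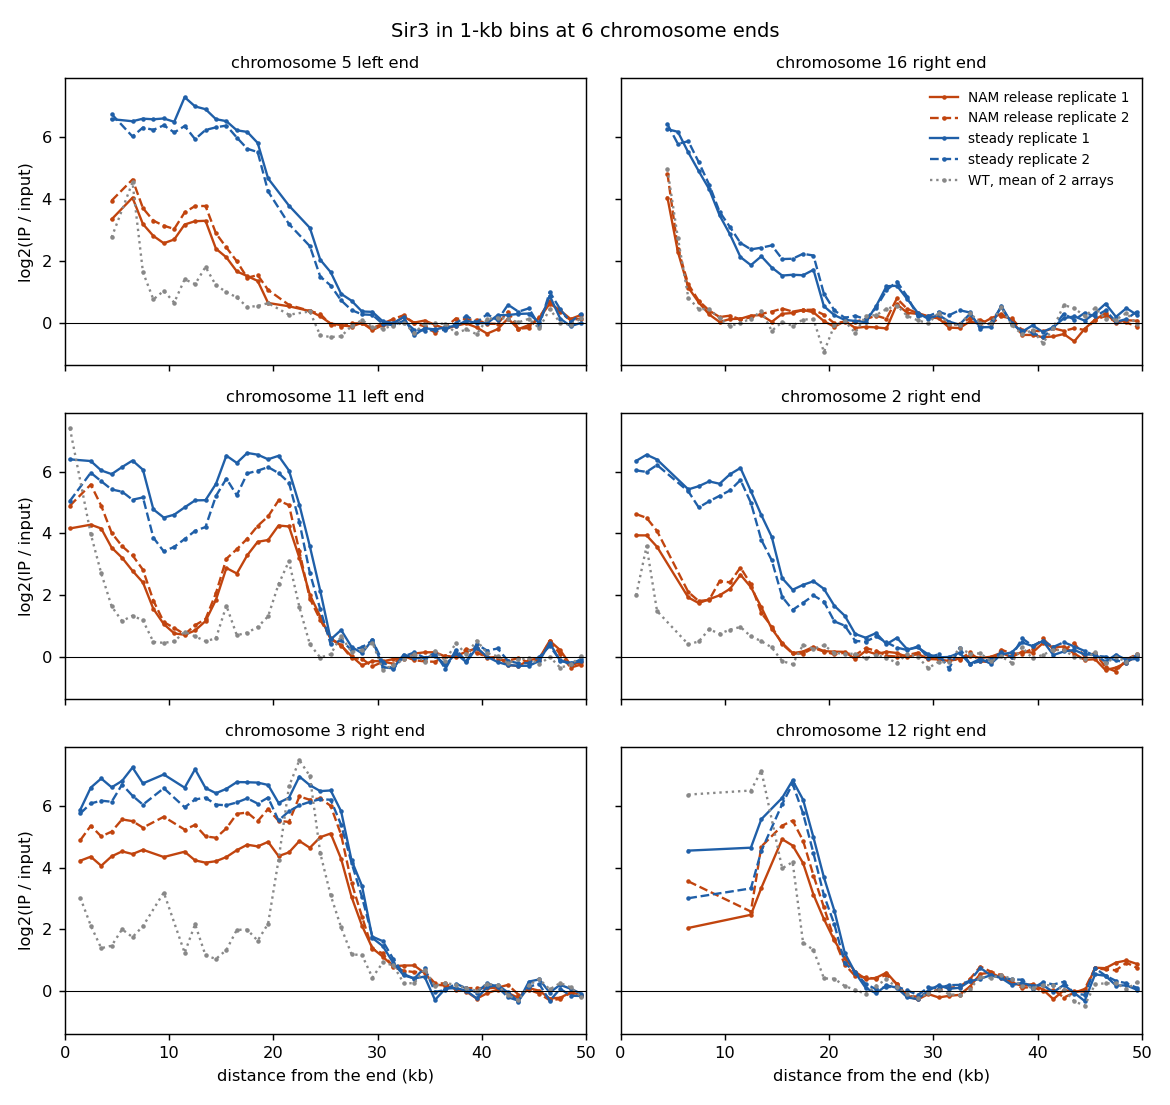
Log2(IP / input) in 1-kb bins against distance from the end (kb) at 6 chromosome ends, with 1 line per array for nicotinamide release (orange) and steady (blue) and a dotted line for the WT mean. At the ends of chromosomes 5, 16, 11 and 2 the release lines fall away from the steady lines within the domain, with a second peak at 20 kb on chromosome 11, while at chromosome 3 right and chromosome 12 right all 4 lines return to baseline at about the same distance.

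Chromosome 3 right, the arm of HMR, had a lower level over nearly the same length. Its windows within 15 kb differed by -1.61 to -1.67 (limma adjusted p = 0.0365 to 0.0404), but by -0.53 to -0.64 with the covariate (adjusted p = 0.486 to 0.521), and those from 15 to 30 kb did not pass (adjusted p = 0.077). In the bin at 11 kb the release arrays had 4.52 and 5.23, against 6.59 and 5.95 in steady growth. Covered length there was 28 and 29 kb after release and 29 and 29 kb in steady growth.

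Gene by gene, 334 of 4038 genes differed (8.27%), 194 lower (4.8%) and 140 higher (3.47%) after release, in the limma fit with Benjamini-Hochberg adjustment. With deposit as a covariate 132 passed (3.27%), 107 lower (2.65%) and 25 higher (0.619%), and 106 genes were called in the same direction by both fits. Leaving out release replicate 1 left 22 calls, release replicate 2 left 97, steady replicate 1 left 59 and steady replicate 2 left 73. When the steady group was widened to all 4 GPD-SIR3 arrays in steady growth, yAT2554 and yAT2476 included, 80 genes passed. After plateau scaling 35 genes fell and 39 rose.

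Genes with a low WT mean and high Sir3 on 2 other steady GPD-SIR3 arrays were lower after release. Those 2 arrays share the growth and the deposit of the steady group. The class therefore favours genes high in that setting, and its counts are a description rather than an independent test. The 27 extended genes, with a mean below 1 in WT and at least 2 in both yAT2554 and yAT2476, had a median log2 ratio of 1.68 and 1.84 after release, against 4.40 and 3.49 in steady growth and 0.73 and 0.37 in WT. All 27 were lower on both release arrays than on both steady arrays, where 34.8% of all genes were. In this class 23 genes fell and 0 rose. Over all genes 4.8% fell, as did 18.0% of the 384 genes within 50 kb of an end. The median difference was -1.95, beside -0.02 over all 4038 genes. Of the 27, 25 differed by less than -1, as did 1.93% of all genes. Between the deposits 8 did in pTEF-SIR3, 12 in pGPD-SIR2 pGPD-SIR3 and 0 in pADH-SIR3. The pADH-SIR3 arrays had medians of 0.65 and 0.46 in this class, near WT, so there was little Sir3 to lose there. The deposit covariate takes in this strain too. With deposit as a covariate 9 fell, with a median of -1.52, and the median was -1.59 after plateau scaling and -0.50 with quantile normalization. Later minus first medians were -0.07 in pADH-SIR3, -0.71 in pTEF-SIR3 and -0.97 in pGPD-SIR2 pGPD-SIR3. Both release arrays were at 2 or more in 10 of the 27 genes, while both were below 1 in 5.

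The 9 subtelomeric genes with a WT mean of at least 2 had medians of 4.34 and 5.19 after release, against 6.10 and 5.86 in steady growth and 3.48 and 2.99 in WT. Here 5 genes fell, beside 4.8% of all genes and 18.0% of those within 50 kb of an end. The median difference was -1.51, or -0.70 with deposit as a covariate, -0.59 after plateau scaling and -0.14 with quantile normalization. All 9 had both release arrays at 2 or more. The difference between the 2 gene classes was not tested.

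**Figure D4:**
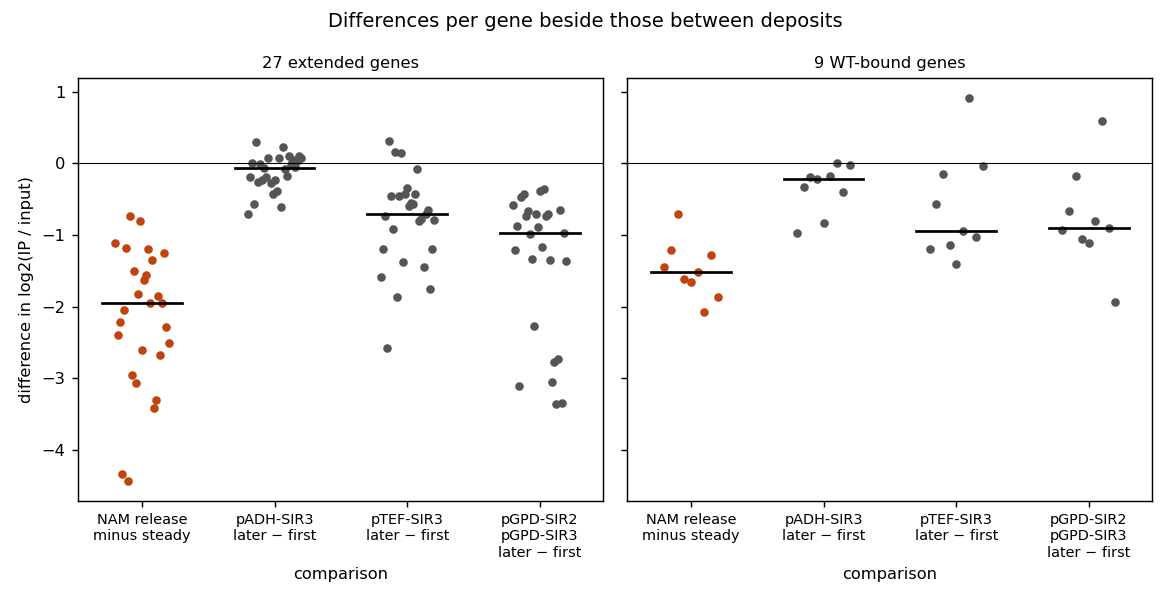
Differences in log2(IP / input) per gene for the 27 extended genes (left) and the 9 WT-bound genes (right), with the median as a bar, for nicotinamide release minus steady (orange) and for the later minus the first deposit in 3 other strains (grey). In the extended genes the median of -1.95 lies below the deposit medians of -0.07, -0.71 and -0.97. The first of these is from pADH-SIR3, whose arrays had medians of only 0.65 and 0.46 there, so little could fall. In the WT-bound genes the median of -1.51 lies below -0.22, -0.94 and -0.90.

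DLD3, named for D-lactate dehydrogenase, fell most. Its 4 probes (YEL071W, chromosome 5, 16538 to 17656 in the files' coordinates, 17.2 kb from the left end) averaged 1.6 and 1.58 after release, against 6.29 and 5.77 in steady growth. The release arrays lay nearer to the WT mean of 0.58 (arrays at 1.33 and -0.16) than to either steady array. The difference was -4.44 ± 0.41 (SE, limma adjusted p = 0.000202), and -3.88 with deposit as a covariate (adjusted p = 0.00416). Its neighbour RMD6, named for a role in meiotic nuclear division, had 2.53 and 2.97 after release, against 6.67 and 6.28 in steady growth (difference -3.73, adjusted p = 0.000423, and 0.00444 with the covariate). COS9, of a subtelomeric family of membrane proteins, had 2.36 and 2.61 after release, against 6.12 and 6.06 (difference -3.60, adjusted p = 0.000468, and 0.00422 with the covariate).

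The arsenic resistance genes at chromosome 16 right stood near WT levels on the release arrays. ARR3, an arsenite exporter, had 0.75 and 0.80 after release, against 4.95 and 5.28 in steady growth, with a WT mean of 0.46. The difference was -4.34 ± 0.83 (SE, limma adjusted p = 0.0114), and -2.25 with the covariate (adjusted p = 0.04). It did not pass after plateau scaling (adjusted p = 0.0557) or against all 4 GPD-SIR3 steady arrays (difference -3.28, adjusted p = 0.0549), where yAT2554 and yAT2476 stood at 2.68 and 3.34. ARR1, the activator of the cluster, had 0.10 and 0.22 after release, against 3.42 and 3.51 (adjusted p = 0.0226, and 0.179 with the covariate). For ARR3 the later minus first difference was -2.58 in pTEF-SIR3 and -3.11 in pGPD-SIR2 pGPD-SIR3, while for DLD3 it was -0.92 and -0.74. The covariate also takes in pADH-SIR3, which had only 0.65 and 0.08 at ARR3. The part of deposit in the ARR3 and ARR1 differences was not tested beyond the covariate.

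Several further genes among the extended class fell by over 2 in log2 units. ENB1, an enterobactin transporter, had 1.72 and 1.94 after release, against 5.09 and 4.47 in steady growth (limma adjusted p = 0.00456, and 0.0251 with the covariate). GDH3, a glutamate dehydrogenase, had 2.76 and 3.40, against 6.15 and 5.22 (adjusted p = 0.00689, and 0.0508 with the covariate). Next to it BDH2, related to butanediol dehydrogenase, had 1.51 and 1.84, against 3.95 and 3.49 (adjusted p = 0.00068, and 0.00565 with the covariate), and there the later minus first differences were 0.30, 0.32 and -0.47. YPS6, a GPI-anchored aspartic protease, had 2.77 and 2.86, against 5.53 and 5.13 (adjusted p = 0.00237, and 0.0191 with the covariate). AQY3, an aquaglyceroporin, had 1.04 and 1.56, against 3.80 and 3.23 (adjusted p = 0.00178, and 0.0129 with the covariate). In all 5 genes the release arrays lay between the WT mean and the steady arrays. BDH2, YPS6 and AQY3 were chosen after their values were seen.

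**Figure D5:**
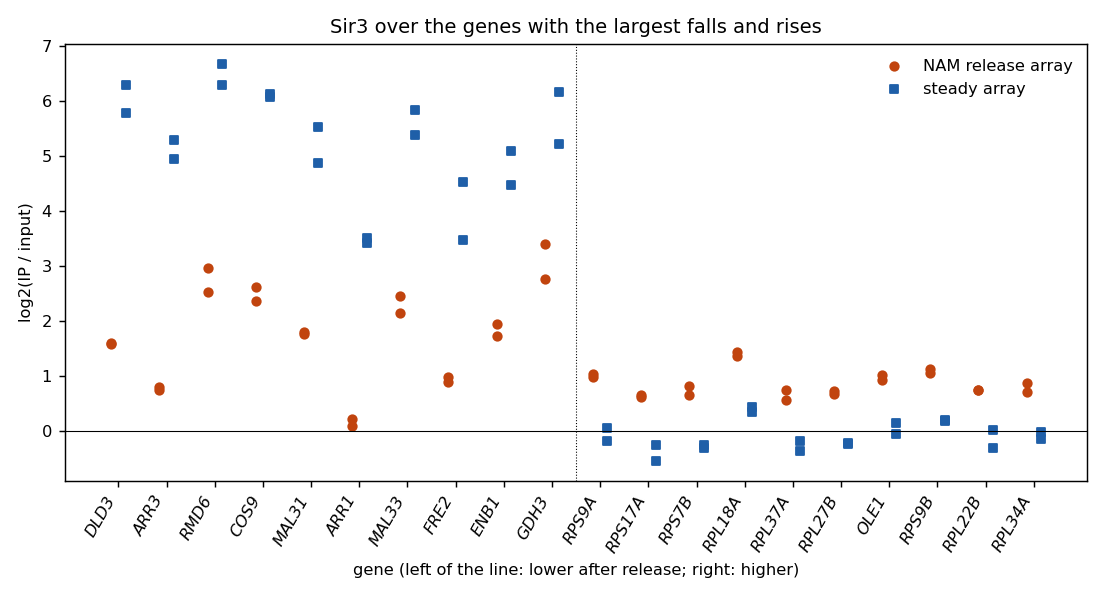
Log2(IP / input) on each array for the 10 largest falls (left of the dotted line) and the 10 largest rises (right), with nicotinamide release in orange circles and steady in blue squares. The genes that fell stood at 3.42 or more on the steady arrays, and those that rose at 1.43 or less on the release arrays.

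Several gene families with members at chromosome ends had lower members and none higher. The subtelomeric sugar genes (maltose, isomaltose and hexose utilisation) had 7 of 10 measured members lower and 0 higher, with a median of -1.57. For this and the following families, 4.8% of all genes and 18.0% of the 384 genes within 50 kb of an end fell. With the covariate 3 fell. MAL31, a maltose permease, had 1.80 and 1.77 after release, against 5.53 and 4.86 in steady growth, and its activator gene MAL33 had 2.14 and 2.45, against 5.84 and 5.37. Neither passed with the covariate (limma adjusted p = 0.124 and 0.1). MAL11, a maltose transporter on chromosome 7, had 1.07 and 1.10, against 3.74 and 3.05, and passed in both fits (adjusted p = 0.0002, and 0.00416 with the covariate), but not against all 4 GPD-SIR3 steady arrays (0.0778), where yAT2476 stood at 1.15. HXT14, a hexose transporter 39.6 kb from its end, had 0.68 and 0.88 after release, against 0.78 and 0.87 in steady growth, and did not pass (adjusted p = 0.869). It is named as a member that lies further inward.

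Of 15 iron uptake genes 6 fell, 0 rose and the median was -0.32. FRE2, a ferric reductase 10.1 kb from the left end of chromosome 11, had 0.89 and 0.98 after release, against 4.53 and 3.47 in steady growth (limma adjusted p = 0.00679, and 0.0562 with the covariate). ARN2, a siderophore transporter 9.3 kb from its end, had 4.08 and 4.81, against 6.30 and 5.64 (adjusted p = 0.0369, and 0.366 with the covariate). FRE2 was thus near its WT mean of 0.52 after release, whereas ARN2 stood well above its WT mean of 1.29. Under quantile normalization ARN2 turned to 0.05 and PHO3 to 0.07, so their directions depend on the scaling. In the phosphate regulon 3 of 7 fell and 0 rose. PHO89, a sodium-phosphate cotransporter 13.8 kb from its end, had 1.42 and 1.34, against 4.43 and 3.66 (adjusted p = 0.0217, and 0.205 with the covariate), whereas the other members that fell, PHO3 and PHO8, are internal and differed by -0.66 and -0.37, neither passing with the covariate. The flocculins, cell wall adhesins, had 2 of 5 lower, FLO9 by -1.50 and FLO5 by -0.80, and neither passed with the covariate. COS10, 3.0 kb from its end, had 4.71 and 5.56, against 6.90 and 6.60 (adjusted p = 0.0281, and 0.28 with the covariate). COS8, the other measured COS gene, did not pass (4.49 and 5.38, against 6.87 and 6.31, adjusted p = 0.0586). Of 2 aryl-alcohol dehydrogenase genes measured 0 passed the limma test, both had an unadjusted p under 0.05, and their median difference was -1.27.

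The genes nearest to the innermost bin covered on both steady arrays, at the 24 ends with a called window, are given as levels only, since the steady arrays chose them. ACS1, an acetyl-CoA synthetase at chromosome 1 left, had 0.98 and 0.87 after release, against 2.19 and 1.95 in steady growth and a WT mean of 0.34. JEN1, a lactate permease at chromosome 11 left, had 2.75 and 2.75, against 4.40 and 3.80 and a WT mean of 0.95.

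At 8 h after release the silent mating loci carried Sir3. The 12 probes within 1.5 kb of the HMR genes averaged 4.59 and 5.84 after release, against 6.44 and 5.87 in steady growth, and the groups nearly met. The 8 probes around HML gave 4.79 and 6.16, against 6.61 and 6.32. HMRA1 itself had 4.82 and 6.41 over 2 probes, against 6.85 and 6.14, so its groups overlapped. HMRA2, HMLALPHA1 and HMLALPHA2 had no probe of their own. YFR057W, a silenced gene at the right end of chromosome 6, had 4.80 and 6.14, against 6.76 and 6.58. The 6 rDNA probes had 2.36 and 3.06, against 3.20 and 2.57, again with overlap.

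Next to the altered left end of chromosome 7, ZRT1, a zinc transporter, had 3.67 and 4.42 after release, against 6.26 and 5.79 in steady growth (limma adjusted p = 0.0178, and 0.168 with the covariate). FZF1, the activator of a sulfite efflux pump, had 3.25 and 3.56, against 5.56 and 4.91 (adjusted p = 0.0171, and 0.154 with the covariate), and turned to 0.08 under quantile normalization. ADH4, which the reporter insertion replaces, had 1 of 4 probes measured on all 4 arrays, at 5.00 and 6.05, against 6.33 and 6.16.

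Of 9 silencing factor genes 0 passed the limma test, 2 were lower at an unadjusted p under 0.05, and the median difference was 0.02. The SIR3 gene itself had 3.73 and 4.25 over 10 probes after release, against 3.88 and 4.06 in steady growth (adjusted p = 0.957) and a WT mean of 0.25. Under quantile normalization alone it passed, at 0.99 (adjusted p = 0.047). SIR1, SIR2, SIR4 and DOT1 differed by 0.02, 0.01, 0.00 and 0.19. PPR1, deleted in this strain, had 3 of 12 probes without a ratio on the 4 arrays and differed by 0.01 over the rest. Among 15 genes of nicotinamide and NAD metabolism 1 rose and 1 fell, numbers near the shares over all genes (3.47% higher and 4.8% lower). SDT1, a nucleotidase that acts on nicotinamide mononucleotide, had 0.34 and 0.14, against -0.29 and -0.45 (adjusted p = 0.00299, and 0.0129 with the covariate). BNA2, the first enzyme of NAD synthesis from tryptophan, had 0.30 and 0.37, against 0.77 and 0.82 (adjusted p = 0.0117, and 0.016 with the covariate, but 0.247 after plateau scaling). PNC1, the nicotinamidase, had 2 probes outside the tested set, at 0.18 and -0.03, against 0.09 and 0.01. The 12 mating-type and haploid genes and the 9 internal control genes had 0 calls by limma, with 1 gene of each list at an unadjusted p under 0.05.

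Away from the ends most differences were small. Of 3640 internal genes 124 fell and 132 rose, with a median over all of -0.01. Only 11 falls exceeded 1 in log2 units. YFR018C, an internal site that Sir3 also binds in WT, had 3.10 and 3.54 after release, against 4.87 and 4.53 in steady growth and a WT mean of 3.89. The difference was -1.38 ± 0.20 (SE, limma adjusted p = 0.00233), and -1.68 with the covariate (adjusted p = 0.00444). After scaling to the HMR plateau it no longer passed (adjusted p = 0.375), and under quantile normalization it turned to 0.31. In yAT2554 and yAT2476 YFR018C stood at 3.50 and 3.06, near the release arrays. Against all 4 GPD-SIR3 steady arrays its difference was -0.67 and did not pass (limma adjusted p = 0.352). CAR2, ornithine transaminase, had 1.88 and 2.70, against 3.95 and 3.79 (adjusted p = 0.0213, and 0.0129 with the covariate), with 2.63 and 1.10 in yAT2554 and yAT2476. It did not pass after plateau scaling (adjusted p = 0.287) or against all 4 GPD-SIR3 steady arrays (difference -0.58, adjusted p = 0.632). GLK1, glucokinase, had 2.41 and 3.17, against 3.70 and 3.92 (adjusted p = 0.0178, and 0.0293 with the covariate), but its difference of -1.02 became -0.52 both after plateau scaling (adjusted p = 0.445) and against all 4 GPD-SIR3 steady arrays (adjusted p = 0.386). CAR2 and GLK1 were picked after their values were seen. The 124 internal falls had medians of -0.22 and -0.20 after release, against 0.30 and 0.29 in steady growth, and 0.15 and -0.11 in yAT2554 and yAT2476. With the steady group widened to all 4 GPD-SIR3 arrays 14 of them passed.

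Ribosomal protein genes, not known as targets of silencing, made up many of the rises. Of 59 ribosomal protein genes 34 rose and 0 fell, beside 3.47% higher over all genes, and 9 of the 10 largest rises were members. Their median difference was 0.61, and 57 of 59 were higher on both release arrays than on both steady arrays, where 27.2% of all genes were. RPS9A, a small subunit protein, had 1.03 and 0.99 after release, against 0.05 and -0.18 in steady growth (difference 1.07 ± 0.15, SE, limma adjusted p = 0.00203, and 0.022 with the covariate). RPL22B had 0.75 and 0.75, against 0.02 and -0.30 (adjusted p = 0.00158, and 0.016 with the covariate). OLE1, the fatty acid desaturase, was the other large rise, with 1.02 and 0.93, against -0.05 and 0.15 (adjusted p = 0.014, and 0.134 with the covariate).

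The rise at ribosomal protein genes depended on which steady arrays it was set against. Their median log2 ratio was 0.96 and 0.84 on the release arrays and 0.29 and 0.32 on the steady arrays, but 0.44 in yAT2554 and 0.85 in yAT2476, the last being within the range of the release arrays. Later minus first medians were 0.39 in pADH-SIR3, 0.12 in pTEF-SIR3 and 0.15 in pGPD-SIR2 pGPD-SIR3. With deposit as a covariate 8 of 59 rose, and with all 4 GPD-SIR3 steady arrays 3 did, RPS9A and RPL22B not among them (adjusted p = 0.0736 and 0.151). The 12 other highly transcribed genes measured had 1 rise, EFB1, a translation elongation factor gene, and a median of 0.15.

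Of 40237 probes, 2715 differed (6.75%), 1390 higher (3.45%) and 1325 lower (3.29%) after release. Under quantile normalization 905 were higher and 428 lower, and with arrays scaled by their internal spread 1993 were higher and 1203 lower. Within 50 kb of an end 826 of 4419 probes fell and 72 rose. Among internal probes between genes 758 of 8833 rose and 86 fell, whereas internal probes inside genes had 555 rises and 413 falls of 26907. With deposit as a covariate the internal probes between genes gave 57 rises and 39 falls.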

How the data were processed

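Anti-Sir3 chromatin immunoprecipitation was hybridised to 2-colour tiling arrays with Cy5 on the immunoprecipitated and Cy3 on the input DNA, per the labels. The deposited files give a ratio per probe, and on 5 arrays, none of the 4 compared, the deposited ratio is recorded as a score because a few values lie below 0, which were left out. The sources used here do not give the scanner, the background correction or the genome build of the probe positions. Each ratio was log2 transformed and centred on the array's median over chromosomal probes (45220 spots, 41480 chromosomal). The authors' rescaled ratio, with missing probes filled, served as an alternative.

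Genes were averaged over at least 2 probes lying 100 bp or more inside the gene and measured on all 19 arrays, windows over at least 3 probes. Gene names come from RefSeq. RefSeq positions of build R64 matched the probe positions within 150 bp on 14 chromosomes. On chromosomes 10 and 11, which were offset, probes had to lie 450 bp inside the upper side of a gene. HML, HMR and rDNA with 10 kb on either side were left out of the internal class. limma 3.58.1 in R 4.3.3 fitted 1 mean per group over 11 groups (8 residual degrees of freedom), with Benjamini-Hochberg adjustment at 0.05. On simulated data of the 4038 genes, 92.5% of changes of -1 and 65.0% of changes of 0.5 were called, with 10 false calls among 181. The simulated noise was independent between genes, with no shared shift by deposit or array scale, so it cannot show how such shifts affect the calls. Array number limits the precision.

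The comparison and gene lists were set with earlier results of these data known, though the arrays themselves were chosen by title alone. The named genes are the 10 largest rises and falls past the threshold without overlap (at most 2 per chromosome arm and direction), the 3 largest called in each list, the genes nearest the domain edges, and a fixed list of silencing loci. Other names are marked where used. Lists without a measured gene were the silent mating loci, Y' helicases and thiamine genes. Of the seripauperin, DAN and TIR mannoproteins 3 of 32 were measured and 1, TIR4, fell by 0.48. Replicate numbers do not pair arrays of different deposits. Alternatives were other scalings, filters, group definitions, moderation, slide and deposit terms, and leaving out each array.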

Additional observations from a re-analysis of the deposited data

How the results depend on the processing

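The count of 334 genes called became 563 with arrays scaled by internal spread, 168 with at least 4 probes per gene, 662 from the 4 arrays alone, 132 with deposit as a covariate, 80 against all 4 GPD-SIR3 arrays in steady growth and 74 after plateau scaling. The 61 windows became 17 (internal spread), 31 (quantile), 40 (4 arrays), 10 (deposit) and 31 (plateau). The 2715 probes became 1333 (quantile), 5295 (4 arrays), 535 (deposit), 875 (all steady) and 1077 (plateau). With the replicate block 656 genes and 0 windows were called from the 4 arrays. Same-numbered arrays come from different deposits, and their deviations correlated at -0.147 over genes. With the numbers crossed 711 genes were called. Leaving out 1 array gave 22 to 97 genes, 10 to 70 windows, 279 (without release replicate 1) to 1202 probes, and internal medians of -0.02 to 0. The WT-bound median was -0.14 (quantile), -0.70 (deposit), -1.01 (all steady) and -0.59 (plateau), the extended median -0.50 (quantile) and the internal median -0.03 (quantile). Covered length differed by -33.0 kb less the deposit mean, and by -70.0 to -128.0 kb without 1 array. Under quantile normalization FZF1 gave 0.08, ARN2 0.05, PHO3 0.07, YFR018C 0.31 and JEN1 0.22. The cause of these shifts was not tested. Of 40 named genes that passed, edge genes included, 24 no longer did with the covariate, 22 after plateau scaling and 23 against all 4 GPD-SIR3 steady arrays. Without release replicate 1 the extended median was -1.88 and the WT-bound median -1.14. With 2 arrays a group, few arrays limit the precision.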
